A study of Mus musculus with 47 samples.

Results

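Sugar breakdown and lactate export were followed through SLAM-seq for 10 genes in mouse P19 cells, in the undifferentiated state (D0) and on day 6 of neuronal differentiation (D6). The members are Slc2a1, Hk2, Pfkp, Aldoa, Tpi1, Pgk1, Eno1, Pkm, Ldha and Slc16a3. They were taken as the 3' UTR intervals whose RefSeq mRNA name maps to these symbols, 10 of the 18796 genes with a named mRNA 3' UTR, and all 10 were found. The list was chosen by earlier read counts, labeling and decay of the same libraries, so the members' own values are given as a description, and the shares of all 3' UTRs that passed each test stand beside their counts.

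P19 is an embryonal carcinoma line, wild type in all groups, and each group therefore rests on 1 cell line. D0 cells were kept undifferentiated in high-glucose DMEM with serum and were labeled with 4-thiouridine (4sU) at 20 µM. D6 cells had received 500 nM retinoic acid in NDiff 227 medium on poly-L-lysine for 6 days and were labeled at 500 µM, so state and medium cannot be told apart in any comparison of D6 with D0, nor can the 4sU dose where the libraries were labeled. In the labeling assay RNA was taken without 4sU and after 3, 6 and 9 h in it. In the removal assay cells had 15 h of 4sU (13 h where the normalization is described) and RNA was taken 0, 3, 6 and 9 h after exchange for 10 mM UTP. These are the hours of the study's methods; the sample labels give 1 and 3 h where the methods give 3 and 6 h. There were 3 libraries in each of the 16 groups, except 2 at D6 6 h after removal, 24 at D0 and 23 at D6. The study calls its replicates biological, and the labels do not say that the libraries of a group came from separate cultures, so a p-value measures the spread between these libraries only.

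Glycolysis splits 1 glucose into pyruvate, and most proliferating and embryonic cells run it fast even with oxygen. The glucose transporter encoded by Slc2a1 brings the sugar in, hexokinase 2 traps it as the phosphate, phosphofructokinase commits it to the pathway, and aldolase, triosephosphate isomerase, phosphoglycerate kinase, enolase and pyruvate kinase carry it down to pyruvate. Lactate dehydrogenase A turns pyruvate into lactate while regenerating NAD+, and the monocarboxylate transporter MCT4, encoded by Slc16a3, carries lactate out of the cell. Many of these genes are textbook targets of the hypoxia-inducible factor HIF-1, whose core DNA letters are ACGTG, and of MYC, which binds CACGTG.

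The starts of the members are shown because both factors are known for acting there. Promoters were read from RefSeq on GRCm38.p6, from 250 bases before to 50 after each start, and all 10 members matched the table, with 16 promoters. ACGTG, searched on both strands (so also as CACGT, and inside CACGTG), was found in 8 of the 16 promoters and in 7 of the 10 members, against 19.6% of all 32851 promoters and 21.8% of 27025 genes. CACGTG was found in 1 member promoter, that of Ldha, against 7.15% of all promoters. No match was found for Pfkp, Tpi1 and Eno1, which says only that these letters are not in those windows. Windows of 30 bases follow, written 5' to 3' along the strand of the gene, with the motif or its reverse complement in capitals.

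Slc2a1: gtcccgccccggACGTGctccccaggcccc
Hk2: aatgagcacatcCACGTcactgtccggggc
Aldoa: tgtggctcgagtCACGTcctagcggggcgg
Pgk1: gcgtcgtgcaggACGTGacaaatggaagta
Pkm: ctccgatccggtCACGTccgcgccgcagca
Ldha: cggcccagcctaCACGTGggttcccgcacg
Slc16a3: cgtgcgcgggggACGTGccgcgcgacggat

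The Slc2a1 window lies at chr4:119108697-119108726 on the plus strand, with the motif 36 bases upstream of the start. That of Hk2 lies at chr6:82774489-82774518 on the minus strand, 52 bases upstream, and that of Aldoa at chr7:126799363-126799392 on the minus strand, 126 or 202 bases upstream of its annotated starts. The Pgk1 window is chrX:106186938-106186967, plus strand, 150 bases upstream, and the Pkm window chr9:59657140-59657169, plus strand, 75 bases upstream. The Ldha window is chr7:46845744-46845773, plus strand, 48 bases upstream, and the Slc16a3 window chr11:120949041-120949070, plus strand, 14 bases upstream. Only 1 window is shown for each gene, and Hk2, Pgk1, Pkm, Ldha and Slc16a3 hold further matches, in Slc16a3 27 bases upstream. These matches are descriptions of sequence; no binding was measured here.

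Each library held 1489528 to 11677046 reads on distinct 3' UTRs, 3447888 to 11677046 at D0 and 1489528 to 7930149 at D6. Reads on these intervals made up 30.3 to 47.4% of the mapped reads at D0 and 15.6 to 33.5% at D6. The states matched their labels by marker genes: all 9 neuronal genes tested were higher at D6 without 4sU, Tubb3 and Map2 among them, and 4 of 6 genes of undifferentiated cells (Pou5f1, Nanog, Utf1 and Tdgf1) were lower, while Sox2 did not pass the test. None of 4 glial genes passed, and 2 of 6 fibroblast and smooth muscle genes (Acta2 and Tagln) were lower. The glial genes S100b and Olig2, and Col3a1 and Dcn of the fibroblast list, had no reads in the libraries compared and could not pass. Libraries 26, 56 and 72 of D0 had the lowest share of reads on 3' UTRs in their groups (30.3, 31.9 and 36.7%, against 33.3 to 44.3% in the other libraries of those groups), so results that move without them are given both ways. The same was done for libraries 14, 45 and 53 of D6, a set chosen after the data were seen. Library 14 had 15.6% of its reads on 3' UTRs against 23.6% in the other library of its group. Library 45 had a mean conversion rate of 1.58% against 2.03 and 2.25% in its group, and library 53 had 2.98% against 4.14 and 3.69%. Library 40 of D6, from a group in none of the read comparisons, had 17.9% on 3' UTRs against 29.01 and 33.5% and was not in this set.

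The members' 3' UTRs (mm10) were covered unequally. Pkm on 9:59678835-59679375 had a mean of 5721 reads a library, Aldoa on 7:126795234-126795418 had 2887, Slc16a3 on 11:120958133-120959000 had 1360, Ldha on 7:46855142-46855627 had 1103 and Tpi1 on 6:124810592-124811268 had 1076. Slc2a1 on 4:119136447-119137330 had 657 reads, Hk2 on 6:82725025-82727309 had 208 and Pfkp on 13:6579874-6581459 had 73.1. Eno1 on 4:150248556-150248873 had 16.5 and Pgk1 on X:106203280-106203699 had 9.64. The last pair is given by counts alone: both genes have near-identical copies elsewhere in the genome, no reads mapping to several places were counted, and their folds were not used. The interval of Pfkp overlaps Pitrm1 and that of Tpi1 overlaps Spsb2, each on the opposite strand; the library kit keeps strand.

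Without 4sU, the glucose transporter, aldolase A, pyruvate kinase and the lactate exporter stood lower in every D6 library than in every D0 library. In this comparison 4 of the 10 members passed the test as lower and 0 as higher. Of all 15432 3' UTRs tested, 3.59% were lower and 5.11% higher. The members were chosen with this contrast known, so nothing is read from their count. Reads are given as CPM (reads scaled to a common library size by TMM), and differences as log2 of D6 over D0 from the edgeR quasi-likelihood fit to all 47 libraries. Their standard error was derived from the F statistic, as the size of the difference over the square root of F. The same was done in the conversion tests. In bulk RNA, fewer cells that express a gene and less RNA per cell cannot be told apart.

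Reads of the glucose transporter were lower at D6. Slc2a1, the main basal glucose transporter (GLUT1), had 158, 145 and 159 CPM in the 3 D0 libraries and 43, 13.2 and 28.5 in the 3 D6 libraries. The groups did not overlap, with means of 154 ± 7.78 and 28.2 ± 14.9 CPM (mean ± SD, n = 3 each). The difference was -2.44 ± 0.60 (log2 ± SE), 5.43-fold lower. Hk2, which phosphorylates glucose, had 75.7, 6.5 and 57.7 CPM at D0 and 31.7, 2.64 and 5.67 at D6. Library 56 of D0 stood far below the other two at D0, the groups overlapped and the difference was -1.81 ± 1.14.

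The middle of the pathway was mixed. Pfkp, the platelet-type phosphofructokinase, had 22.9, 0.394 and 20.04 CPM at D0 and 17.98, 0.587 and 16.1 at D6. Each state thus had a library with only 2 reads, and the difference of -0.32 ± 1.56 was far smaller than its error. Aldoa, which cleaves fructose bisphosphate, had 565, 1174 and 704 CPM at D0 and 226, 242 and 145 at D6. Every D6 library was below the lowest D0 library, with a difference of -1.995 ± 0.376. Tpi1, which interconverts the 3-carbon products, had 265, 134 and 240 CPM at D0 and 88.4, 115 and 96.2 at D6. Its groups did not overlap either, but library 56 of D0 came near the highest D6 library and the difference of -1.09 ± 0.45 did not pass the test. Without libraries 14, 45 and 53 of other D6 groups in the fit, the same difference of -1.09 passed.

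Pyruvate kinase was the most deeply covered member. Pkm, whose enzyme makes pyruvate and ATP, had 1140, 2037 and 993 CPM at D0 and 471, 617 and 490 at D6, a difference of -1.40 ± 0.26, 2.64-fold lower. The smallest error of the 10 went with the highest read counts, 7087 to 10343 reads at D0 and 2103 to 3461 at D6. Ldha, which makes lactate, had 226, 149 and 187 CPM at D0 and 185, 88.6 and 56.9 at D6. Library 37 of D6 lay among the D0 values, and the difference of -0.77 ± 0.63 did not pass.

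The lactate exporter was lower at D6 as well. Slc16a3 had 238, 484 and 219 CPM at D0 and 69.98, 59.9 and 24.6 at D6. All D6 libraries lay below all D0 libraries, and the difference was -2.61 ± 0.72, 6.10-fold lower. This call rests on the spread of few libraries: without library 39 of D6 the difference was -2.27, without library 56 of D0 it was -2.15, and without libraries 26, 56 and 72 it was -2.16, and none of these passed (adjusted p = 0.0864, 0.0776 and 0.0796 in edgeR). Library 56 held the highest Pkm, Aldoa and Slc16a3 and the lowest Slc2a1, Hk2, Tpi1 and Ldha of its group. Libraries 26 and 72 held the highest Pkm, Aldoa and Slc16a3 and the lowest Slc2a1, Hk2 and Tpi1 of theirs. These 3 libraries are those with the low share of reads on 3' UTRs, and its part in these values was not tested.

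Eno1 was nearly unread in this assay. It had 19, 1 and 112 reads at D0 and 0, 1 and 1 at D6. Pgk1 had 37, 0 and 5 reads at D0 and 0, 0 and 146 at D6, where all reads came from library 39. Neither gene's groups can be ordered from such counts, although DESeq2 called Eno1 lower on them (adjusted p = 0.0481). In all, 5 members (Slc2a1, Aldoa, Tpi1, Pkm and Slc16a3) had D6 groups wholly below D0, a pattern shown by 13.1% of all 3' UTRs tested.

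**Figure D1:**
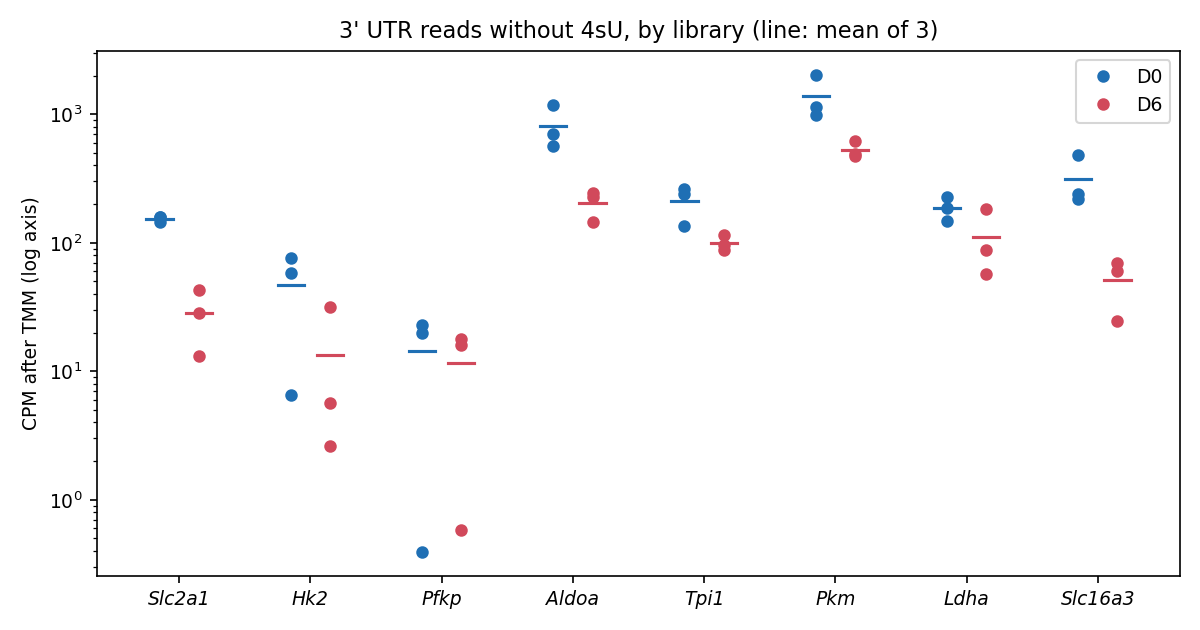
CPM (reads at a common library size, log axis) of 8 members in the 3 D0 (blue) and 3 D6 (red) libraries without 4sU; points are libraries and lines are means. Slc2a1, Aldoa, Tpi1, Pkm and Slc16a3 show no overlap, whereas Hk2, Pfkp and Ldha do.

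Among the isoenzymes of the members, 1 was lower and 1 higher. Slc2a3, the high-affinity glucose transporter GLUT3, had 323, 216 and 378 CPM at D0 and 16.7, 2.64 and 2.12 at D6, 42.6-fold lower (-5.41 ± 0.74, adjusted p = 6.52e-08 in edgeR). Eno2, the neuronal enolase, went the other way with 2.35, 0.197 and 4.48 CPM at D0 and 62.5, 81.6 and 51.4 at D6 (4.77 ± 1.32, adjusted p = 0.0112 in edgeR). Eno1b, a processed copy of Eno1 that carries an enolase reading frame, had 210, 213 and 160 CPM at D0 and 137, 71.3 and 64.6 at D6, non-overlapping, but the difference of -1.10 ± 0.49 did not pass the test. No reads mapping to several places were counted. Whether the counted reads of Eno1 and Eno1b were assigned to the right copy was not tested.

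The other isoenzymes did not pass. Hk1 stood at 0.21 ± 1.04, Pfkl at -0.40 ± 0.55, Pfkm at -1.08 ± 0.78, Aldoc at 1.64 ± 1.82, Eno3 at -1.69 ± 1.45, Ldhb at 0.28 ± 0.64 and Slc16a1, encoding the transporter MCT1, at -1.08 ± 0.98. Aldoc, the brain aldolase, had higher means at D6 than at D0 (15.6 ± 1.08 against 4.99 ± 2.38 CPM, mean ± SD, n = 3 each). Gapdh, named after its values were seen, had only 12.5, 9.85 and 29.3 CPM at D0 and 3.64, 23.8 and 0.567 at D6 on its counted interval, and is another gene with many near-identical copies.

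Across the pathway as listed for this report, other glycolysis enzymes gave 1 higher (Eno2) and 0 lower of 19 tested, with a median of -0.40 against 0 for all 3' UTRs and -1.60 for the members. Of 10 other sugar and monocarboxylate carriers, 2 were lower. These were Slc2a3 and Emb (embigin, a partner protein of the lactate transporters), which had 216, 185 and 177 CPM at D0 and 10.9, 13.5 and 14.9 at D6 (-3.88 ± 0.77, adjusted p = 0.000167 in edgeR). Bsg (basigin), the partner of MCT4, is named after its values were seen and stood at -0.78 ± 0.32, which did not pass.

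Of 19 genes for the fate of pyruvate and NADH, 4 were lower and 0 higher. Got2, the mitochondrial arm of the malate-aspartate shuttle, fell by 1.31 ± 0.31 on the log2 scale (adjusted p = 0.00193 in edgeR), from 599 ± 217 to 241 ± 29.1 CPM (mean ± SD, n = 3 each). Pdha1, a subunit of pyruvate dehydrogenase, fell by 1.66 ± 0.50 (adjusted p = 0.0205 in edgeR). Gpd2, the mitochondrial glycerol phosphate dehydrogenase, fell by 1.29 ± 0.39 (adjusted p = 0.0253 in edgeR), and the remaining gene was Got1, of the cytosolic arm of that shuttle (-1.85 ± 0.58, adjusted p = 0.0294 in edgeR). In the pentose phosphate pathway 1 of 8 was lower, Pgd, the second NADPH-making enzyme (-1.79 ± 0.53, adjusted p = 0.0204 in edgeR). None of 22 hypoxia-response genes outside glycolysis passed in either direction, with a median of -0.02. In the comparisons over 9 h of 4sU, 15 h of 4sU and 9 h after removal, no gene of these 5 lists was called in either state.

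**Figure D2:**
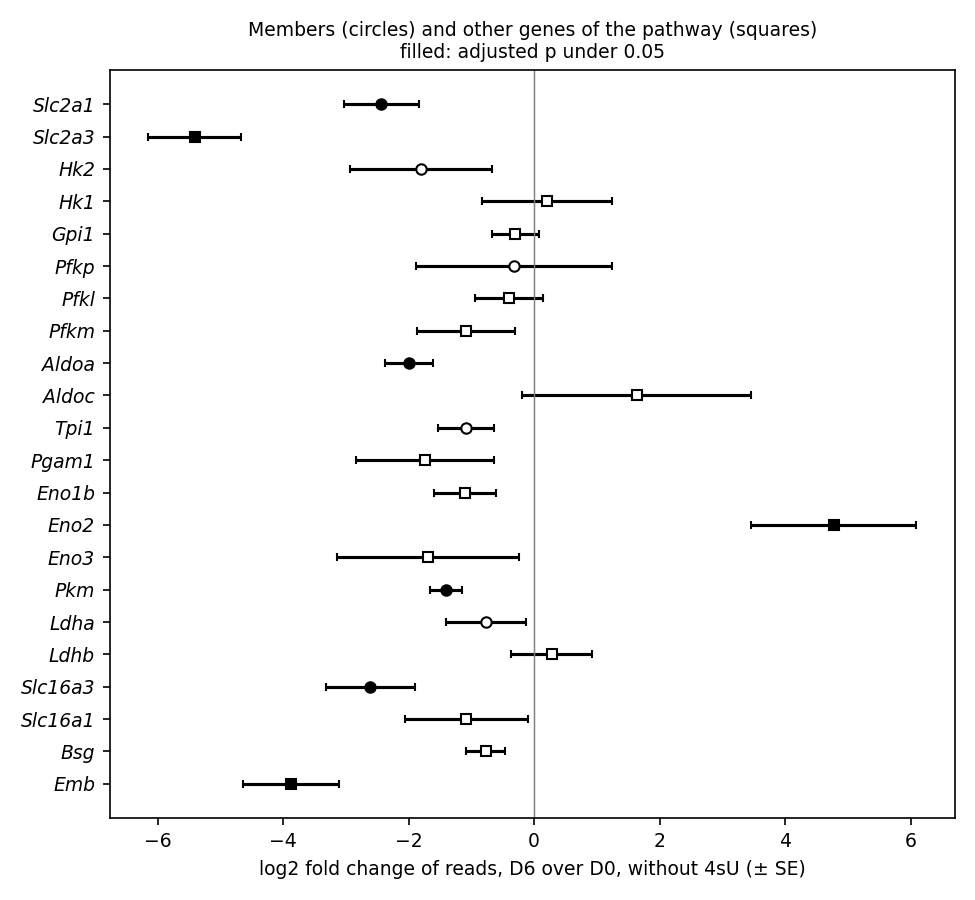
Difference of reads between D6 and D0 without 4sU (log2, bars ± SE) for 8 members (circles) and their isoenzymes, partners and carriers (squares), in pathway order; filled symbols passed an adjusted p of 0.05. Slc2a3 and Emb lie furthest left and Eno2 furthest right.

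Over the whole series, 3 members were lower in every D6 library than in every D0 library, a pattern of 1.67% of all 3' UTRs tested; the list was chosen with these libraries known. Across the 24 D0 and 23 D6 libraries of all times and both assays, Pkm ranged from 929 to 2037 CPM at D0 (median 1132) and from 347 to 921 at D6 (median 511). Aldoa ranged from 498 to 1174 at D0 (median 655) and from 7.41 to 283 at D6 (median 123). Slc16a3 ranged from 219 to 778 at D0 (median 273) and from 1.47 to 99.8 at D6 (median 6.68). The D6 median of Slc16a3 lay below all 3 D6 libraries without 4sU.

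The other members overlapped between states. Tpi1 had 134 to 420 CPM at D0 and 2.47 to 303 at D6, Ldha 149 to 492 and 3.82 to 247, and Slc2a1 84.1 to 253 and 0.823 to 145. Hk2 had 6.5 to 78.3 CPM at D0 and 0 to 36.4 at D6, with 2 D6 libraries at 0. Pfkp had 0.394 to 24.8 and 0 to 37.1 CPM, with 4 D6 libraries at 0. Eno1 was at 0 in 13 D6 libraries and in no D0 library, with at most 112 reads anywhere. Pgk1 was at 0 in 16 D6 and 8 D0 libraries.

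The D6 libraries that received 4sU differed among the members in how they stood against the 3 D6 libraries without it. Of these 20 libraries, 17 lay below the lowest library without 4sU for Slc16a3, 15 for Aldoa, 13 for Tpi1 and 12 for Ldha. The number was 7 for Pkm, 7 for Hk2, 5 for Pfkp and 1 for Slc2a1. Each count rests on 1 library, the lowest without 4sU. For Hk2, Pfkp and Slc2a1 this was library 38, with 2.64, 0.587 and 13.2 CPM. By these counts the lactate exporter was highest and the glucose transporter lowest of the members listed, but the place of Slc2a1 depends on library 38. Libraries 39 and 37, also without 4sU, had 28.5 and 43 CPM of Slc2a1. Labeled D6 libraries such as 40 and 10, with 22.5 and 20.5 CPM, lay between libraries 38 and 39. No share of all 3' UTRs stands beside these counts, so no order of the members is read from them.

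**Figure D3:**
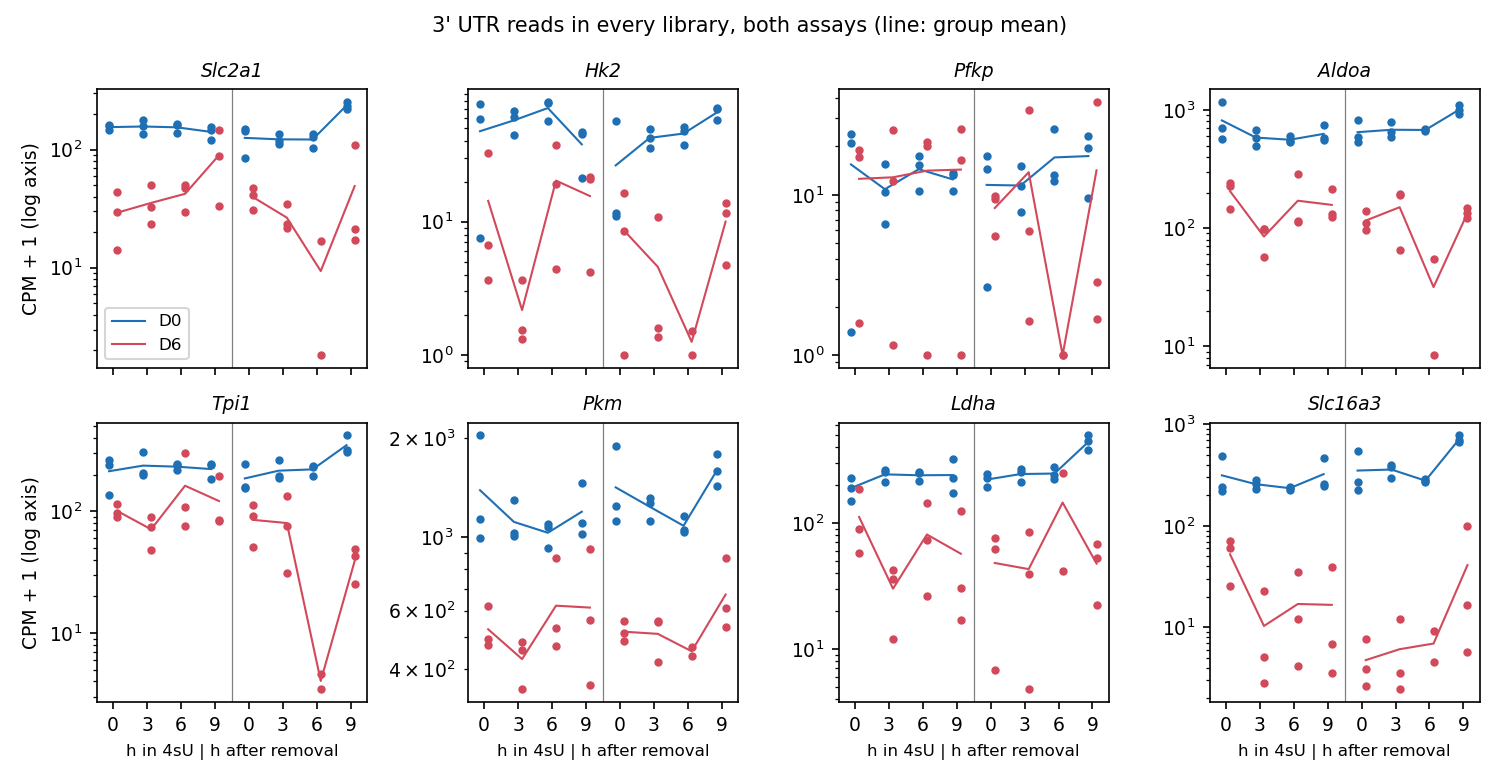
CPM plus 1 (log axes, each with its own range) of 8 members in every library, against hours in 4sU (left of the grey line) and hours after its removal following 15 h of 4sU (right); points are libraries and lines are group means. D6 (red) lies below D0 (blue) at all times for Pkm, Aldoa and Slc16a3, and the D0 group means of all but Hk2 are highest 9 h after removal.

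After 9 h of 4sU no member passed the test at D0. Slc16a3 had 259, 246 and 463 CPM (0.04 ± 0.67 against none), Pkm 1021, 1105 and 1462 (-0.22 ± 0.25) and Ldha 173, 225 and 317 (0.35 ± 0.63). All 10 members overlapped with their groups without 4sU and 0 were called, where 0.00648% of all 3' UTRs were called, 5.75% were wholly higher and 2.83% wholly lower.

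At D6 the same 9 h, at the higher dose, gave 0 calls among the members, beside 0.0778% of all 3' UTRs, and every member overlapped with its libraries without 4sU, where 3.18% of all were wholly higher and 6.25% wholly lower. Slc16a3 had 5.79, 38.6 and 2.54 CPM against 69.98, 59.9 and 24.6 without 4sU, -1.82 ± 0.73. The middle value is library 53, among the most shallow of the series at 1504166 reads. Ldha had 16.1, 122 and 29.5 CPM (-1.003 ± 0.643), again with library 53 highest. Slc2a1 had 87.9, 145 and 32.5 CPM (1.64 ± 0.58), and its highest value came once more from library 53, which raised this difference. Without libraries 14, 45 and 53 the differences were -3.59 for Slc16a3 and -2.27 for Ldha, and both then passed (adjusted p = 0.000115 and 0.0215 in edgeR). Slc16a3 also passed without the low-count filter (-1.81, adjusted p = 0.0341 in edgeR). Slc2a1 passed as higher in DESeq2 (1.68, adjusted p = 0.04805), but not in edgeR without libraries 14, 45 and 53. Without library 53 alone the differences of Slc16a3 and Ldha were -3.62 and -2.28 and did not pass (adjusted p = 0.147 and 0.436 in edgeR). That fit kept the dispersion trend of all libraries, while the fit without 14, 45 and 53 estimated it anew. Their p-values are therefore not alike in kind, although the differences are close.

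The change over 9 h was also compared between the states. D6 minus D0 was -1.86 ± 0.98 for Slc16a3, 1.77 ± 0.81 for Slc2a1 and -1.35 ± 0.90 for Ldha. No 3' UTR passed in this comparison, 0% of 15432, while 1002 had an unadjusted p under 0.05 and DESeq2 called 281. Without libraries 14, 45 and 53 the difference for Slc16a3 was -3.63 (adjusted p = 0.00458 in edgeR). No other setting called Slc16a3 here, and this set was chosen after the data were seen.

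After 15 h of 4sU at D6, Slc16a3 had 6.68, 1.65 and 2.91 CPM, from 38, 6 and 10 reads. All 3 lay below the lowest library without 4sU, and the difference was -3.73 ± 0.78, 13.3-fold lower. It did not pass in the fit to all libraries but passed in DESeq2 (adjusted p = 0.00273), without library 39 (-4.07, adjusted p = 0.0480 in edgeR) and without libraries 14, 45 and 53 (-3.70), as well as without the low-count filter. Aldoa had 140, 109 and 95.8 CPM, also below all libraries without 4sU, at -0.83 ± 0.37. Ldha had 60.6, 74.6 and 5.83 CPM, at -1.23 ± 0.64. Pkm, in contrast, had 485, 556 and 511 CPM, at -0.02 ± 0.25, and Slc2a1 40.2, 29.6 and 46.0, at 0.45 ± 0.57.

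These 2 members with separate groups stand beside 6.14% of all 3' UTRs that were wholly lower in this comparison. Called were 0 members and 0% of all 3' UTRs by edgeR, with 982 at an unadjusted p under 0.05 and 238 called by DESeq2. At D0 the 15 h groups of all members overlapped with those without 4sU, and 0 members were called. Of all 3' UTRs 0.0583% were called, 3.29% were wholly higher and 3.77% wholly lower. The largest D0 difference among the 8 covered members was that of Hk2 (-0.88 ± 1.11), with 10.6, 10.0 and 55.7 CPM. That of Slc16a3 was 0.16 ± 0.67.

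After 4sU was removed, 6 members had D0 reads at 9 h wholly above those at the time of removal, none of them past the test. Slc16a3 had 272, 551 and 227 CPM at removal and 706, 778 and 672 after 9 h, 1.04 ± 0.68 on the log2 scale. Ldha stood at 192, 224.2 and 241 CPM at removal and at 380, 441 and 492 after 9 h (1.00 ± 0.63). For both, no library at 9 h lay in the range at removal.

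Slc2a1 had 141, 84.1 and 148 CPM at removal and 231, 221 and 253 at 9 h (0.92 ± 0.57). Tpi1 had 245, 154 and 158 against 321, 420 and 306 (0.91 ± 0.44), Aldoa 584, 828 and 531 against 997, 1103 and 918 (0.64 ± 0.36), and Hk2 10.6, 10.0 and 55.7 against 69.4, 69.8 and 56.6 (1.36 ± 1.12). These 6 members had groups that did not overlap, a pattern of 6.91% of all 3' UTRs. Pkm overlapped, with 1118, 1890 and 1245 against 1431, 1795 and 1593 CPM (0.18 ± 0.25). No 3' UTR was called (0%), with 575 at an unadjusted p under 0.05 and 200 called by DESeq2, so none of these differences passed. At 3 and 6 h after removal Slc16a3 had 296 to 397 and 270 to 291 CPM, and Ldha 211 to 264 and 221 to 275, so the higher values were those of the 9 h libraries.

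At D6 the same interval gave other values. Slc16a3 had 6.68, 1.65 and 2.91 CPM at removal and 4.66, 99.8 and 15.6 at 9 h, a difference of 3.35 ± 0.77 that did not pass (adjusted p = 0.0525 in edgeR). It passed in DESeq2 (3.32, adjusted p = 0.0119) and in edgeR without the low-count filter (3.34, adjusted p = 1.55e-08), without libraries 14, 45 and 53 (3.31, adjusted p = 4.48e-06) and without libraries 26, 56 and 72 (3.36, adjusted p = 0.0305). Library 17 with 289 reads carried it: without that library the difference was 1.37 (adjusted p = 0.663 in edgeR), and without library 16 it was 3.89 (adjusted p = 0.0180 in edgeR). Tpi1 had 90.1, 112 and 50.1 CPM against 47.8, 24.2 and 42.3, wholly lower at -1.14 ± 0.45, which did not pass, beside 7.39% of all 3' UTRs that were wholly lower. Slc2a1 had 16.1, 108 and 20.1 CPM at 9 h, and again library 17 was far above the others (0.31 ± 0.57, or -1.09 without it).

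In the same comparison some markers of other cells were also higher in library 17 than in the other libraries. Tdgf1, a gene of undifferentiated cells, had 0.878, 1.92 and 0.874 CPM at removal and 1.25, 34.2 and 1.06 at 9 h, with 99 reads in library 17, and passed as higher (adjusted p = 0.0339 in edgeR), while the other 5 such genes tested did not. The 8 listed genes of undifferentiated cells summed to 500.02 to 662 CPM at removal and 707 to 957 at 9 h, nearly all of it Sox2. Without Sox2, which neural progenitors also express, the sum was 1.46 to 7.91 CPM at removal and 34.2, 77.3 and 28.8 at 9 h. Zfp42 and Dppa5a were at 0 in all 6 libraries, and Pou5f1 was at 0 in library 17. Esrrb was the largest part of these 9 h sums in each library, with 40.4 CPM in library 17 beside 34.2 of Tdgf1. Fibroblast and smooth muscle genes summed to 0.176 to 6.12 CPM at removal and to 0.358, 20.7 and 2.38 at 9 h, the high value again being library 17, and none of the 6 passed. Tagln made up 18.6 of the 20.7 CPM. Library 17 had the lowest 9 h sum of glial genes, 80.1 CPM against 185 and 180. It also had the lowest 9 h sum of neuronal genes, 7549 CPM against 8332 and 9107. Endoderm genes summed to 0 there. The part of other cells in the Slc16a3 value was not tested. In this comparison 0 members and 0.0907% of all 3' UTRs were called. Whether the reads moved differently after removal in the 2 states was not tested.

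Labeled RNA was read as T>C conversions per 100 covered T positions. The pooled rate of a library is all its conversions over all its covered T, so 3' UTRs with many reads weigh most. Without 4sU the pooled rate was 0.144 to 0.207% at D0 and 0.136 to 0.190% at D6. After 9 h it was 1.21 to 1.30% and 2.98 to 4.14%, and after 15 h it was 1.38 to 1.49% and 4.24 to 4.87%. For the conversion tests 9834 3' UTRs with at least 1000 covered T on average were kept, and 8 members passed this minimum, all but Eno1 and Pgk1. Precision follows the coverage: a D0 library had a median of 210056 covered T on Pkm and 2565 on Pfkp.

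Slc16a3 carried T>C conversions without any 4sU. At D0 it had 1862 in 120927 covered T, 1.54%, where the median 3' UTR had 0.0208% and only 161 of 9545 (1.69%) had as much. The conversions sat singly: 1862 of 5853 reads (31.8%, 95% Wilson interval 30.6 to 33%) had 1 each. All 3 libraries showed it, with 1.29, 1.96 and 1.2%. At D6 the rate was 0.881%, with 135 of 705 reads converted (19.1%, 16.4 to 22.2%), and 378 of 9452 3' UTRs (4.00%) had as much. Such intervals cover counting error only, since reads carry no molecular identifiers.

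The other members had little of it. At D0 Slc2a1 had 0.0553%, Pkm 0.0277%, Aldoa 0.0174%, Pfkp 0.0119%, Tpi1 0.00453%, Ldha 0.00130% (1 conversion in 77162 covered T) and Hk2 none in 32883. At D6 Slc2a1 had 0.279% and Hk2 0.249%, both from single libraries or nearly so, Aldoa 0.172%, Pkm 0.0392%, Ldha 0.00901% and Tpi1 and Pfkp none.

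**Figure D4:**
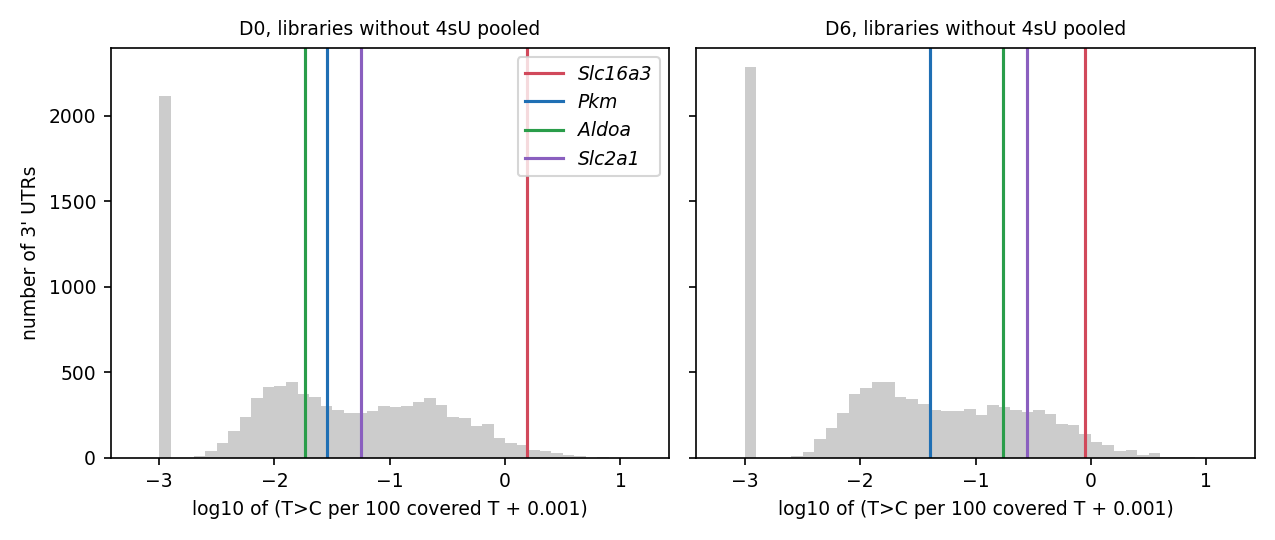
Distribution over 3' UTRs (grey) of T>C conversions per 100 covered T without 4sU, libraries pooled, as log10 of the rate plus 0.001, at D0 (left) and D6 (right); coloured lines mark Slc16a3, Pkm, Aldoa and Slc2a1. Slc16a3 lies in the right tail in both states, at 1.54% and 0.881%.

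This background covered the labeling signal of Slc16a3. Its mean D0 rate was 1.48% without 4sU, 0.946% and 0.929% after 3 and 6 h in it, 1.79% after 9 h and 1.90% after 15 h, so the early labeled libraries lay below the unlabeled ones. It was 0.873% at 9 h after removal, below the rate without any 4sU. A share of label left of 46.0% at D0 turned into -187% once the unlabeled rate was subtracted, which has no meaning as a share. At D6 the exporter had 0 to 1 conversions in each library after 9 h in 4sU, on 10 to 56 reads, and 15, 80 and 3 conversions 9 h after removal, on 26, 289 and 59 reads. No labeling or decay value of Slc16a3 is therefore read as turnover.

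At D0 after 3 h in 4sU the mean rates were 0.0791% for Slc2a1, 0.0243% for Hk2, 0.0197% for Pkm and 0.0227% for Ldha, each a small part of the later rates. Without 4sU their mean rates were 0.0469%, 0%, 0.0299% and 0.000904%, so Pkm was no higher after 3 h. The pooled rate of the D0 libraries at 3 h was 0.158 to 0.162%, within the 0.144 to 0.207% without 4sU. After 6 h Hk2 reached 0.766% and Slc2a1 0.476%, while Tpi1 had 0.217%, Ldha 0.194%, Aldoa 0.141% and Pkm 0.140%. After 9 h Hk2 (1.54 ± 0.57%, mean ± SD, n = 3) and Slc2a1 (1.503 ± 0.0636%) stood above the pooled rate, and Aldoa (0.808 ± 0.108%), Ldha (0.674 ± 0.154%), Pkm (0.599 ± 0.115%) and Tpi1 (0.495 ± 0.110%) below it. No library of Slc2a1 overlapped with any of the last 4 genes at 9 h.

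The rate at 9 h was next set against that after 15 h, as the share of label reached. Each share divides a library's rate by the mean of the 15 h libraries, here and for the label left after removal, so its SD leaves out the spread of the 15 h libraries, which for Slc2a1 at D0 was 1.45 ± 0.386%. At D0 it was 103 ± 4.38% for Slc2a1 and 103 ± 38.2% for Hk2 (mean ± SD, n = 3), 71.7 ± 9.56% for Aldoa, 59.7 ± 11.4% for Pkm, 38.6 ± 8.56% for Tpi1 and 21.1 ± 30.02% for Pfkp, beside a median of 93.7% over 9194 3' UTRs. Ldha came to 126 ± 28.7%, because its 15 h libraries had only 0.349, 0.384 and 0.875%. Those 15 h rates lay mostly below the 1.44, 0.756 and 1.32% found 3 h after removal. Whether the low 15 h rate of Ldha belongs to those libraries or to the gene was not tested.

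At D6 the share reached was 86.0 ± 4.97% for Pkm, 62.6 ± 26.8% for Aldoa, 134 ± 31.4% for Tpi1, 42.3 ± 10.3% for Hk2 and 108 ± 56.1% for Slc2a1, beside a median of 70.9% over 9416. Ldha ran from 14 to 202%, with library 53 highest, and gives no usable value. The share of Hk2 divides by the 15 h rates of only 2 libraries, 4.68 and 18.4%, since the other had no covered T. Its size depends on which of these rates is taken, and its SD leaves this spread out.

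In the test of the newly made share (9 h against 15 h, D6 minus D0), Tpi1 stood at 1.79 ± 0.75 (log2 ± SE), Pkm at 0.53 ± 0.29, Aldoa at -0.20 ± 0.61, Slc2a1 at 0.07 ± 0.79, Hk2 at -1.21 ± 1.40, Pfkp at 1.15 ± 2.36, Ldha at -0.58 ± 1.59 and Slc16a3 at -4.20 ± 1.77. The median over all 3' UTRs was -0.47. None passed, 0 members and 0% of all; 750 had an unadjusted p under 0.05 and DESeq2 called 104.

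Among the members at D0, Hk2 kept less label than Pkm and Aldoa. Hk2 had a mean of 1.49% at removal and 1.03, 0.480 and 0.0186% after 3, 6 and 9 h, which left 1.25 ± 0.63% of its label (n = 3). Slc2a1 had 1.45% at removal, 1.65 and 1.11% after 3 and 6 h, and 0.156% after 9 h, leaving 10.7 ± 12.3%. Pfkp left 16.5 ± 15.2% on thin coverage. Pkm left 54.6 ± 5.40%, Aldoa 52.4 ± 7.59%, Tpi1 41.4 ± 22.8% and Ldha 81.2 ± 8.5%. The value of Ldha rests on its low 15 h rate: its mean was 0.536% at removal, 1.17% after 3 h and 0.435% after 9 h. The median over 9191 3' UTRs was 17.1%, with an interquartile range of 6.09 to 39.3%.

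Pkm and Aldoa had nearly flat courses until 6 h. Pkm had 1.00, 1.05, 0.956 and 0.547% at 0, 3, 6 and 9 h, and Aldoa 1.13, 1.16, 1.01 and 0.591%. The pooled rate was 0.400 to 0.432% in those 9 h libraries.

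At D6 only Pkm kept enough reads for a narrow value. Its rate was 4.22% at removal, 4.79% after 3 h, 1.74% after 6 h (2 libraries, 0.735 and 2.75%) and 2.34% after 9 h, leaving 55.5 ± 5.12%, beside 54.6 ± 5.40% at D0. The median of all 3' UTRs at D6 was 11.4%, with an interquartile range of 3.48 to 24.4%. Aldoa left 37.3 ± 31.2%, Tpi1 43.1 ± 46.8%, Slc2a1 21.1 ± 17.8%, Hk2 9.66 ± 16.2%, Pfkp 13.2 ± 22.9% and Ldha 6.45 ± 10.8%. Their SDs are of the size of the means, and conversions came in few reads: in library 9 at removal, all 148 conversions of Hk2 lay in 26 reads.

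**Figure D5:**
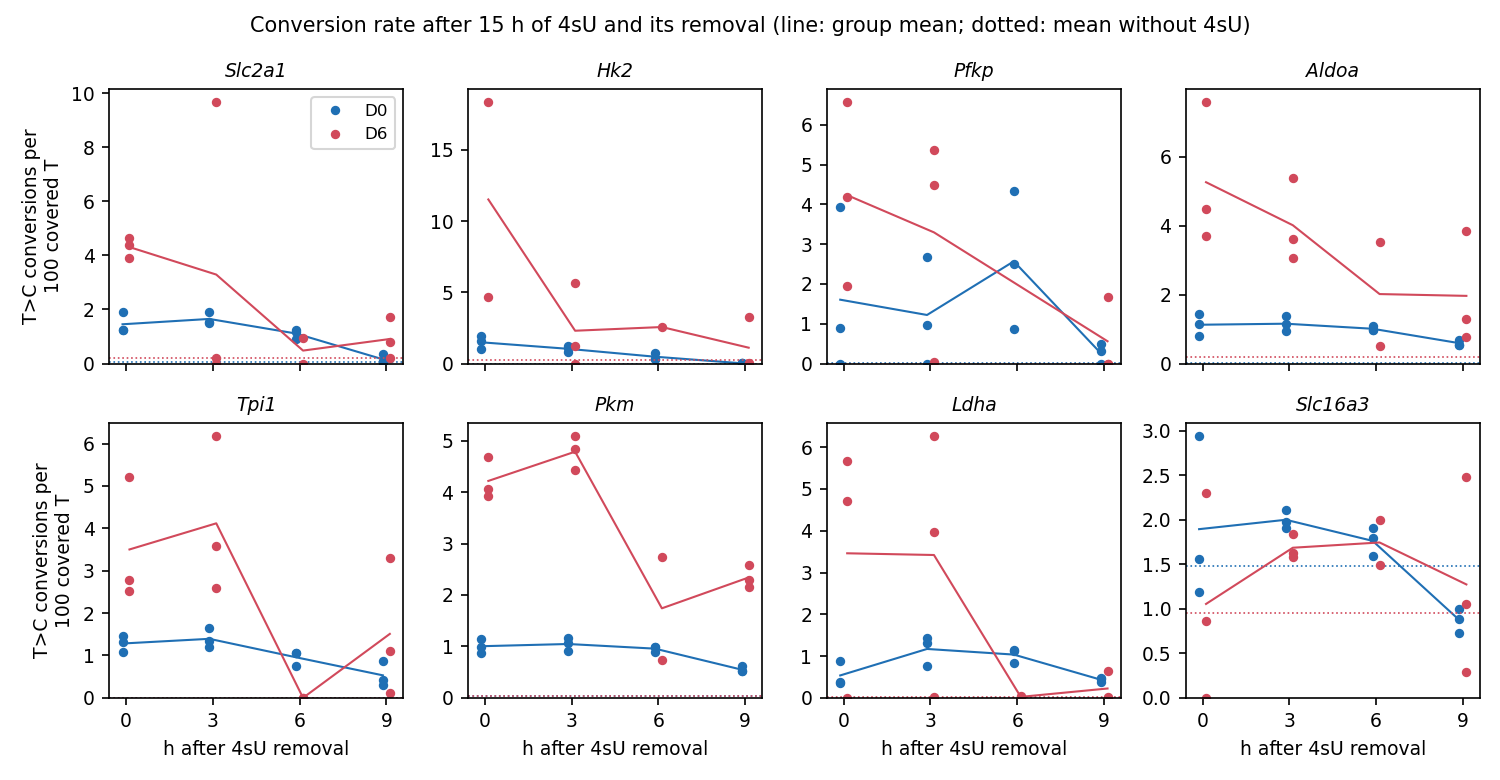
T>C conversions per 100 covered T for 8 members against hours after 4sU removal, at D0 (blue) and D6 (red); points are libraries, lines are group means and dotted lines are the means without 4sU. D0 Hk2 falls to 0.0186% at 9 h, Pkm keeps 0.547% at D0 and 2.34% at D6, and the D0 group mean of Slc16a3 is below its dotted line (1.48%) at 9 h only, with 0.873%.

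The slope of label over the 4 removal times was compared between the states, per hour on the log2 scale. The difference D6 minus D0 was -0.03 ± 0.07 for Pkm, -0.07 ± 0.10 for Aldoa, -0.04 ± 0.16 for Tpi1, 0.04 ± 0.23 for Slc2a1, 0.25 ± 0.27 for Hk2, -0.14 ± 0.33 for Pfkp and -0.48 ± 0.24 for Ldha. The errors leave room for slopes that differ by more than the estimates. Called were 0 members and 0.0203% of all 3' UTRs.

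Half-lives were fitted to single-exponential courses and kept where R squared was above 0.6. The exponential term also had to be at least 0.001 at the first time after 0 h. For decay at D0 both held for Hk2 alone, at 213 ± 41.2 min (± SE of the fit, R squared 0.79, n = 12 libraries). It was 110 min if the labels' hours are used, and 85.4 ± 169 min from 0 and 9 h alone, so its size depends on the hours taken. For uptake at D0 both held for Hk2 (294 ± 85.8 min), Slc2a1 (338 ± 89.0 min), Pkm (715 ± 153 min) and Tpi1 (1002 ± 141 min). With the labels' hours these 4 were 173 ± 45.1, 209 ± 38.3, 488 ± 56.2 and 756 ± 71.2 min. Aldoa (400 ± 59.2 min) and Ldha (170 ± 54.3 min) were then kept as well. From 0 and 9 h alone Hk2, Slc2a1 and Ldha gave no usable value, their 9 h rate being at or above that of 15 h. Pkm then gave 412 ± 50.01 min and Tpi1 768 ± 80.3 min. Aldoa was also kept there, at 296 ± 30.7 min. With background subtracted Pkm no longer met the minimum. These half-lives therefore depend on the hours and times used. At D6 no member met the minimum of R squared in either assay with all the times and hours of the methods. From 0 and 9 h alone, D6 decay met it for Slc2a1 (240 ± 52.5 min), Pkm (635 ± 77.2 min) and Pfkp (185 ± 150 min). D6 uptake was then kept for Hk2, Pfkp, Aldoa and Pkm, and with the labels' hours for Slc2a1, Aldoa, Tpi1 and Pkm. From 0 and 9 h, D6 uptake of Slc2a1 and Tpi1 had R squared of 0.703 and 0.813 but failed the minimum of the exponential term.

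Across the 16 group means (log2 CPM), the members' reads went together to different degrees. Pearson's r of Slc16a3 was 0.95 with Pkm, 0.94 with Ldha, 0.91 with Aldoa, 0.88 with Hk2, 0.83 with Slc2a1, 0.70 with Tpi1 and 0.63 with Pfkp. The lowest value among the 8 was 0.42, between Ldha and Pfkp, and the highest 0.96, between Tpi1 and Pfkp. The points share the split between D0 and D6 and the depth of their libraries. Among 14681 other 3' UTRs, those most like Slc16a3 were Eef1akmt4, a protein lysine methyltransferase (0.98), Kyat3, a kynurenine aminotransferase (0.98), and Rarg, the retinoic acid receptor gamma (0.97). Those most like Ldha were Gdi2, a regulator of Rab proteins, Hells, a chromatin remodeler, and Pmm2, a mannose phosphate mutase (0.95 each).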

How the data were processed

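P19 cells were labeled with 4sU, total RNA was alkylated and 3' end (QuantSeq FWD) libraries were sequenced. The authors counted reads, T>C conversions and covered T positions per RefSeq-named 3' UTR interval on mm10 with SLAMdunk 0.3.3, whereas their methods name GENCODE vM17 for the intervals. In the deposited tables these columns are raw counts, the conversion rate is a fraction (conversions over covered T), and the deposited CPM are scaled to all mapped reads and were used only for library totals.

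Transcripts with the same 3' UTR were taken as 1 feature; each member had 1. Reads of all 47 libraries in 16 groups were fitted with edgeR 4.0.16 (R 4.3.3; TMM, low-count filter, quasi-likelihood test, Benjamini-Hochberg over all features, threshold 0.05). Conversions were fitted in edgeR with covered T as offset, where the average coverage reached 1000 T. Correlations used log2(CPM + 1). Half-lives were fitted in SciPy 1.17.1 and kept at R squared above 0.6 and up to 5000 min. Their exponential term also had to be at least 0.001 at the first time after 0 h. Alternatives were DESeq2 1.42.0, limma 3.58.1, library totals without TMM, other filters, coverage, features, hours and samples, and each library left out; those last fits kept the dispersion trend of the full fit. The steps were tested on simulated data. Named were all members, their isoenzymes and, of each pathway list, up to 3 genes of smallest p in each direction among those past the test, and the 3 genes most alike to Slc16a3 and to Ldha. Members and lists were chosen with earlier results of these data known.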

Additional observations from a re-analysis of the deposited data

How the results depend on the processing

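No called value changed sign, while uncalled ones did, such as Slc2a1 after removal at D6 (0.31, or -1.09 without library 17); counts of calls depended on the processing. For D6 against D0 without 4sU (1342 calls), DESeq2 gave 2292, each transcript on its own 2138, and the fit without D6 libraries 14, 45 and 53 gave 2288. With DESeq2, no low-count filter, only the groups compared, without D6 libraries 14, 45 and 53, and without D0 libraries 26, 56 and 72 (both sets chosen after seeing the data), in this order, the calls were 149, 12, 0, 12 and 5 for 9 h of 4sU at D0 (1 in the report; 0 to 2 leaving out 1 library at a time), 457, 49, 0, 43 and at most 1.5 times different at D6 (12; 5 with each transcript on its own; 3 to 55), and 281, 10, unmoved, 20 and 2 for their difference (0; 0 to 2). For 15 h of 4sU they were 262, 37, 0, 41 and little moved at D0 (9; 5 to 14), and 238, 7, 1, 56 and 2 at D6 (0; 4 with each transcript on its own; 0 to 2). For 9 h after removal they were 200, 18, unmoved, 22 and 4 at D0 (0; 0 to 4), and 417, 73, 79, 321 and 52 at D6 (14; 0 to 20).

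Members called went from 0 to 2 (DESeq2), 1 (no filter) and 2 (without 14, 45 and 53) for 9 h at D6, to 1 and 1 (DESeq2; without 14, 45 and 53) for its difference, to 1 (DESeq2) for 15 h at D0, to 2, 1 and 1 (DESeq2; no filter; without 14, 45 and 53) and 0 to 1 leaving out libraries for 15 h at D6, to 1 (DESeq2) after removal at D0, and to 2, 1, 1 and 1 (DESeq2; no filter; either set left out) and 0 to 1 after removal at D6. In all 6 of these DESeq2 counts 1 call is Pgk1, whose groups rest on libraries at 0 reads. For D6 against D0 without 4sU, DESeq2 also called Eno1, and the fit without 14, 45 and 53 also called Tpi1. Slc16a3 was lost there without library 39, without library 56 and without 26, 56 and 72. The newly made share had 0 calls, but 104 with DESeq2, 104 with limma after background subtraction, 7 without 14, 45 and 53, 1 without 26, 56 and 72, and 0 to 25 leaving out libraries. The decay slope had 2 calls, but 109 with DESeq2, 0 with limma, 87 with the labels' hours, 15 from 0 and 9 h, and 1 to 3 leaving out libraries.

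The members' median share of label left at D0 (43.7%) was 28.6% after background subtraction and 38.3 to 48.7% leaving out libraries, and the share reached at D6 (73.9%) was 48.4 to 82.4%. Both medians include Slc16a3 and Ldha, whose shares are not usable. Without Slc16a3 the median left at D0 was 41.4%, and 41.2% after subtraction, so the shift to 28.6% came with Slc16a3. Without both it was 28.97%, so the median also depends on Ldha. Half-lives kept among the members were 1 for decay at D0 (4 with the labels' hours, 5 from 0 and 9 h, 7 with no minimum of R squared, 1 to 2 leaving out libraries) and 4 for uptake at D0 (8 with no minimum; 2 to 5). For uptake at D0, Aldoa and Ldha were also kept with the labels' hours, and only Aldoa, Tpi1 and Pkm from 0 and 9 h. At D6 the half-lives kept were 0 for decay (3 from 0 and 9 h, 7 with no minimum, 0 to 1) and 0 for uptake (4, 4 and 8 with the labels' hours, 0 and 9 h, and no minimum, 0 to 1). The cause of the other shifts was not tested. Low reads at D6 limit Slc16a3, Hk2, Pfkp, Eno1 and Pgk1 most. No paired analysis was possible because library numbers are not shared between groups.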
